A study of Mus musculus with 50 samples.

Results

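The UDP-glucuronosyltransferase (Ugt) and sulfotransferase (Sult) genes were followed across C3H/He mouse livers and liver tumours. A row of the count table was a member if its symbol began with Ugt1a, Ugt2a, Ugt2b, Ugt3a or a numbered Sult family, and if at least 5 of 49 libraries held 10 or more of its counts. Of 45792 rows, 39 carried such a symbol and 33 met the count rule. They were 8 Ugt1a, 8 Ugt2, 2 Ugt3, 5 Sult1, 7 Sult2 and 3 other Sult genes. The 6 rows that failed it were Ugt2a1, Ugt2a2, Sult1c1, Sult2a3, Sult2a4 and Sult6b1.

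RNA-seq was performed on 12 non-tumour livers of mice on control diet (N1 to N12), 11 non-tumour livers of mice on the ALIOS diet (N13 to N23), 13 spontaneous tumours of ALIOS fed mice, 1 spontaneous tumour of a control fed mouse (T7), and tumours of mice that also received the liver carcinogen DEN, 8 on the ALIOS and 5 on the control diet. Per the study's methods the mice without DEN were male and began their diets at 8 weeks of age, and per the labels tissue was taken at 48 weeks in each group. The sex and diet start of the DEN mice are not given in the sources used here. The ALIOS diet is a fast food model rich in trans-fat, with fructose in the drinking water. No source used here states which liver and tumour came from the same mouse, and the DEN schedule and the number of mice behind the DEN tumours are not given, so p-values over tumours measure the spread between these samples.

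The tumour T1 was left out, since its library held kidney transcripts (the kidney tubule markers Umod, Kap, Slc34a1, Slc12a1 and Aqp2 summed to 42539 counts per 1000000 (CPM) there, and to at most 21.7 in the other 49 libraries). Those 49 libraries held 23798251 to 45751398 counts each. Hepatocyte markers were abundant in each group, with 7 genes summing to at least 76335 CPM in all 49 libraries. T24, an ALIOS DEN tumour, stood apart in zonation markers, with 26122 CPM over 6 pericentral genes and 45.9 over 6 periportal genes, where group medians were 1083 and 1181.

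Both families are enzymes of conjugation. Ugt enzymes, in the endoplasmic reticulum, join glucuronic acid from UDP-glucuronate to bilirubin, steroids, bile acids and drugs, and cytosolic Sult enzymes transfer sulfate from PAPS to phenols, steroids and bile acids. The liver is the main site of both, the products leave through ABC transporters, and nuclear receptors such as CAR (Nr1i3) and PXR (Nr1i2) drive several of the genes. Some mouse Sult genes, Sult2a1 and Sult3a1 among them, are known to be expressed in female far more than in male liver.

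Several members could not be counted independently of each other. The Ugt1a genes lie in 1 stretch of chromosome 1 (chr1:88055388-88220002, GRCm38.p6, plus strand), where each has its own first exon and all share the exons that follow, so that 39.4% to 49.7% of a gene's exonic bases were its own. The counting dropped reads that lay only in shared exons, so a Ugt1a count stands for the gene's own part. Between 50.4% and 70.9% of the 100-base windows of Ugt1a transcripts also occurred in another Ugt or Sult gene. The share was 24.7% for Ugt2b5 and 24.2% for Ugt2b38, whose coding sequences were 97.0% identical, and it was 34.6% for Sult2a2, 16.6% for Sult2a5 and 11.4% for Sult2a1. It was at most 1.1% for the other members. Levels of those sets are therefore uncertain between neighbours. An exon of Sgf29 overlaps Sult1a1 on the opposite strand, and exons of Lmtk3 and Gm31597 overlap Sult2b1, and the strand setting of the counting is not given.

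**Figure D1:**
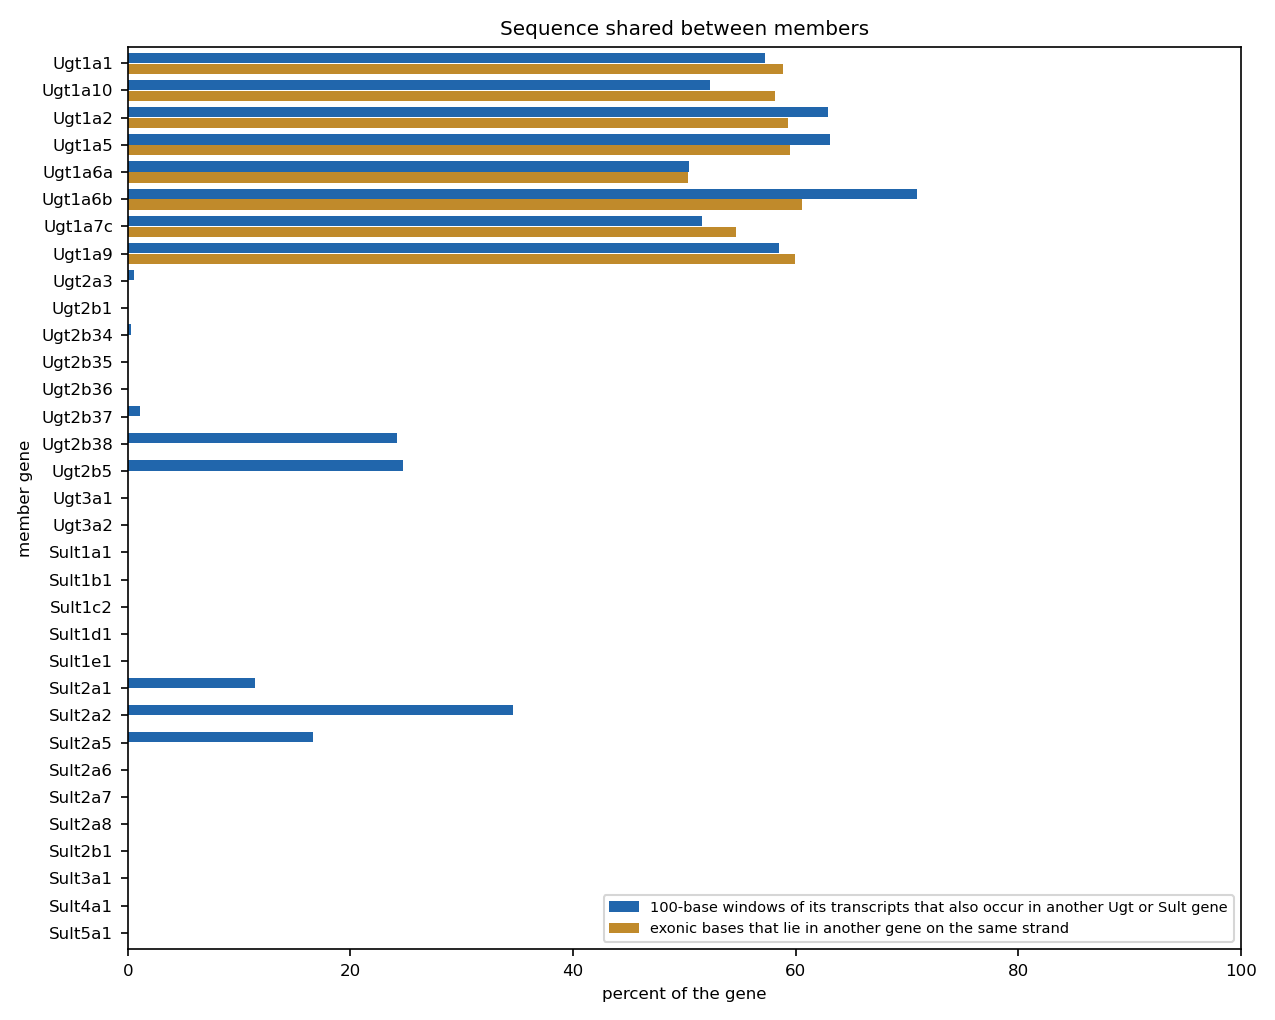
Percent of each member gene's sequence that is shared: blue bars, 100-base windows of its transcripts found in another Ugt or Sult gene, and ochre bars, exonic bases that lie in another gene of the same strand. The Ugt1a genes reach 70.9% of windows, and Sult2a2, Ugt2b5, Ugt2b38, Sult2a5 and Sult2a1 follow with 34.6% to 11.4%.

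The Sult2a genes, hydroxysteroid and bile acid sulfotransferases, are shown in sequence because they moved in opposite directions in the tumours. They form a cluster on chromosome 7 between positions 13623967 and 14494230 of GRCm38.p6. Over the first 60 coding bases, read from the longest open reading frame of the annotated transcripts of the C57BL/6J reference, Sult2a1, Sult2a2 and Sult2a5 were identical, and Sult2a8 differed from each of them at 26 positions. Over the aligned bases of their coding sequences Sult2a1 was 97.9% identical to Sult2a2, 94.9% to Sult2a5, 89.7% to Sult2a6 and 69.5% to Sult2a8. The Sult2a2 reading frame had 585 bases and that of Sult2a1 858, so this pair was compared over 585. Capitals mark the 35 columns in which the 6 genes were not all alike.
Sult2a1: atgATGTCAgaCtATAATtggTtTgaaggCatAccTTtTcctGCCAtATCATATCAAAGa
Sult2a2: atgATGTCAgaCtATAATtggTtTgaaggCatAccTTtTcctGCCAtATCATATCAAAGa
Sult2a5: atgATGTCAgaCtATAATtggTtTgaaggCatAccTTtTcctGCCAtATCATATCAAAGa
Sult2a6: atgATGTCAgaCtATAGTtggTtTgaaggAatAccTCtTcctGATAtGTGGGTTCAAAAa
Sult2a7: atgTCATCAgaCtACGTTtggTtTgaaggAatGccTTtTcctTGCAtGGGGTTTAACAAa
Sult2a8: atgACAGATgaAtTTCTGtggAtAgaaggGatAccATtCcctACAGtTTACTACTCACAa

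In non-tumour liver the Ugt pool was spread over many genes and the Sult pool over few. Levels between genes were compared as CPM per kb of a gene's own exons. In control diet livers the largest mean levels per kb were those of Sult2a8 at 331, Ugt2b36 at 293, Ugt2b5 at 257, Sult1a1 at 247, Ugt2b1 at 230 and Ugt1a1 at 227. The 18 Ugt members summed to a median of 1662 CPM per kb in control diet livers and 1576 in ALIOS livers. Of that sum Ugt2b36 held a median of 18.8% in control diet livers. The 15 Sult members summed to 683 and 677, of which Sult2a8 held 52.2% in control diet and 44.7% in ALIOS livers, and Sult1a1, the main phenol sulfotransferase, 35.0% and 42.5%. Below 1 CPM per kb on average in control diet livers were Ugt1a2, Ugt1a7c and Ugt1a10, Sult1e1, Sult2a1, Sult2a2, Sult2a5, Sult2a6 and Sult2b1, Sult3a1 and Sult4a1.

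**Figure D2:**
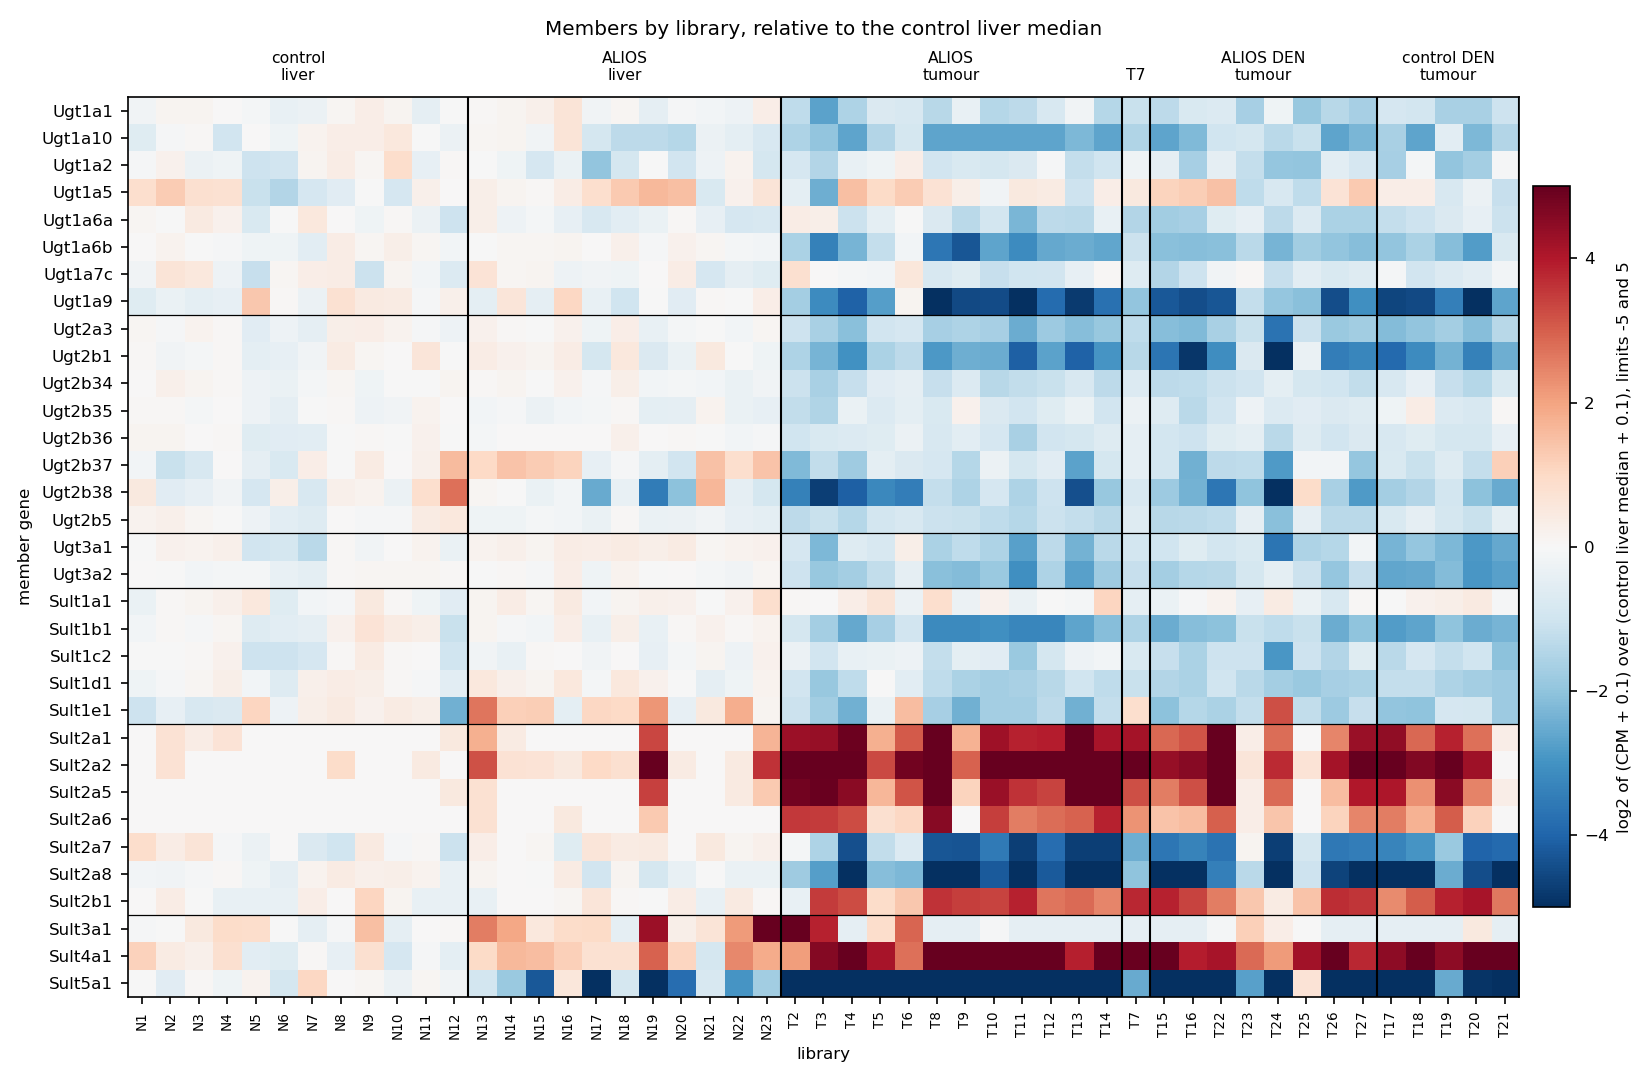
Each cell is 1 member (rows, by family) in 1 library (columns, by group), as log2 of its CPM plus 0.1 over the control diet liver median plus 0.1. Most Ugt rows and Sult2a8 turn blue (lower) in the tumour columns, and Sult2a1, Sult2a2, Sult2a5, Sult2a6, Sult2b1 and Sult4a1 turn red (higher).

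The ALIOS diet alone changed few members in non-tumour liver. With edgeR's quasi-likelihood test over 13723 genes, 2 of the 27 members that passed the filter on low counts were higher on the ALIOS diet (6.73% of all genes were) and none was lower (4.51% of all genes were). At an unadjusted p under 0.05 there were 6 of 27 members and 4024 of all genes, DESeq2 called 4 members higher and none lower, and the median log2 fold change of the 27 was 0.03 against -0.02 over all genes. Scaled by library totals alone, the calls over all genes were 1238 higher and 184 lower in place of 923 and 619, and the calls of members were the same in number.

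Sult1e1, the oestrogen sulfotransferase, had 0 to 1.02 CPM with a median of 0.425 in control diet livers and 0.276 to 3.28 with a median of 0.99 in ALIOS livers. The groups overlapped, and its log2 fold change was 1.52 ± 0.43 (SE, n = 11 and 12, edgeR adjusted p = 0.0244). Without N19, an ALIOS liver chosen after its values were seen, it was 1.37 with an adjusted p of 0.0547 in edgeR. Sult4a1, a sulfotransferase best known from brain and with little known activity, had 0.0421 to 0.461 CPM (median 0.152) in control diet livers and 0.037 to 1.83 (median 0.472) in ALIOS livers. Its log2 fold change was 1.77 ± 0.42 (edgeR adjusted p = 0.0116), and 1.46 without N19 (edgeR adjusted p = 0.0303). Sult4a1 passed the filter mostly through the ALIOS livers. Both genes were thus at or under a few CPM in every liver.

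Several near-silent Sult genes had counts mostly in ALIOS livers. Sult2a2 gave 187 counts over the 11 ALIOS livers and 6 over the 12 control diet livers, a ratio of 33.5 after depth (95% counting interval 15.1 to 92.6). N19 alone reached 3.56 CPM, N23 was next with 1.14, and the ALIOS median was 0.0637. Without N19 the Sult2a2 ratio was 13.2 (5.77 to 37.4). Sult2a5 gave 40 counts against 1, of which N19 held 33, and its ratio of 43.0 (7.29 to 1742) was 8.43 (1.08 to 380) without that liver. Sult2a6 gave 8 counts against 0, of which N19 held 5. These Sult2a counts in ALIOS livers thus came mostly from 1 liver. Sult3a1, an amine sulfotransferase, gave 1116 counts against 23, a ratio of 52.2 (34.6 to 82.7). N23, at 35.6 CPM, held 968 of them, the ALIOS liver median was 0.165 CPM, and without N23 the ratio was 7.57 (4.86 to 12.3). These genes did not pass the filter on low counts. Without it edgeR called Sult2a2 at 4.67 ± 1.0 (adjusted p = 0.00743), Sult2a5 at 4.06 ± 1.09 (adjusted p = 0.0283) and Sult3a1 at 5.65 ± 1.16 (adjusted p = 0.00659). Beside them, 6 of 7 tested liver genes known to be higher in female mice (among them Cyp2b9, Cyp2b13, Cyp3a44 and Cyp2a4) rose with the diet, and 2 of 8 known to be higher in males (Elovl3 and Hsd3b5) fell. All 5 macrophage markers rose too, with a median log2 fold change of 0.79. Over all genes 6.73% rose and 4.51% fell. The part of the sex-biased genes or of macrophages in the Sult levels was not tested.

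No member fell on the ALIOS diet at the threshold. Sult5a1, whose substrates are little known, was closest, with 7.06 to 26.4 CPM (median 12.9) in control diet livers and 0.033 to 19.1 (median 3.47) in ALIOS livers. Its log2 fold change was -1.54 ± 0.53 (edgeR adjusted p = 0.0586). The abundant members lay close together between diets. Sult2a8 had 793 to 1432 CPM (median 1073) on control diet and 547 to 1413 (median 1059) on the ALIOS diet, a log2 fold change of -0.19 with a 95% interval of -0.46 to 0.07. Ugt1a1, which conjugates bilirubin, had 154 to 267 CPM (median 211) and 156 to 326 (median 217), with an interval of -0.14 to 0.28.

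In tumours most members were lower than in non-tumour liver, on both diets and with or without DEN. Spontaneous ALIOS tumours were compared with ALIOS livers (12 against 11 libraries, 14183 genes). Of 27 members tested, 19 were lower and 4 higher, and over all genes 25.9% were lower and 26.9% higher. In DEN tumours on the ALIOS diet (8 against 11, 14434 genes) 18 of 26 were lower and 2 higher, against 19.8% and 27.7% of all genes. In DEN tumours on the control diet (5 against 12 control diet livers, 14731 genes) 20 of 28 were lower and 2 higher, against 24.4% and 27.3% of all genes. Of the lower members 14, 13 and 16 were lower by at least 2-fold. The median log2 fold change of the members tested was -1.09, -1.09 and -1.26, and that of all genes tested 0.01, 0.08 and 0.03. The first and second comparisons share the ALIOS livers.

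Of the 4 members higher in spontaneous tumours, Sult2a1, Sult2a2 and Sult2a5 were near 0 in liver and passed the filter on low counts through the tumours. So did Sult2a2 in ALIOS DEN tumours, and Sult2b1 and Sult4a1 in control DEN tumours. The direction of all these calls was fixed by the filter. Some scarce members called lower passed it mostly through the livers, so their direction was fixed as well. Among them were Sult1e1 and Sult2a7 in spontaneous tumours and Sult2a7 in ALIOS DEN tumours. In control DEN tumours they included Ugt1a10, Sult1e1, Sult2a7 and Sult5a1. Of the 33 members, 15 were lower in each of the 3 comparisons, 1 (Sult4a1) was higher in each, and 17 had another pattern or went untested in at least 1. The share of all genes with each pattern is not given, so these numbers only describe the members. Under scaling by library totals alone the median of all genes moved by 0.18, 0.14 and 0.07 (log2) and the higher and lower calls over all genes became 5526 and 2059 for spontaneous tumours (3812 and 3675 with TMM), and 5159 and 1822 for ALIOS DEN tumours (3995 and 2856). The member calls were then 17, 17 and 20 lower and 4, 2 and 2 higher. In bulk tissue, fewer cells of a type and less RNA per cell cannot be told apart. Of 7 hepatocyte markers tested, Alb, Apoa1 and Serpina1a rose in each tumour comparison, while Cps1, of the urea cycle, fell in each. Ttr fell in spontaneous tumours, and Fgb and Apob passed the threshold in no tumour comparison.

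**Figure D3:**
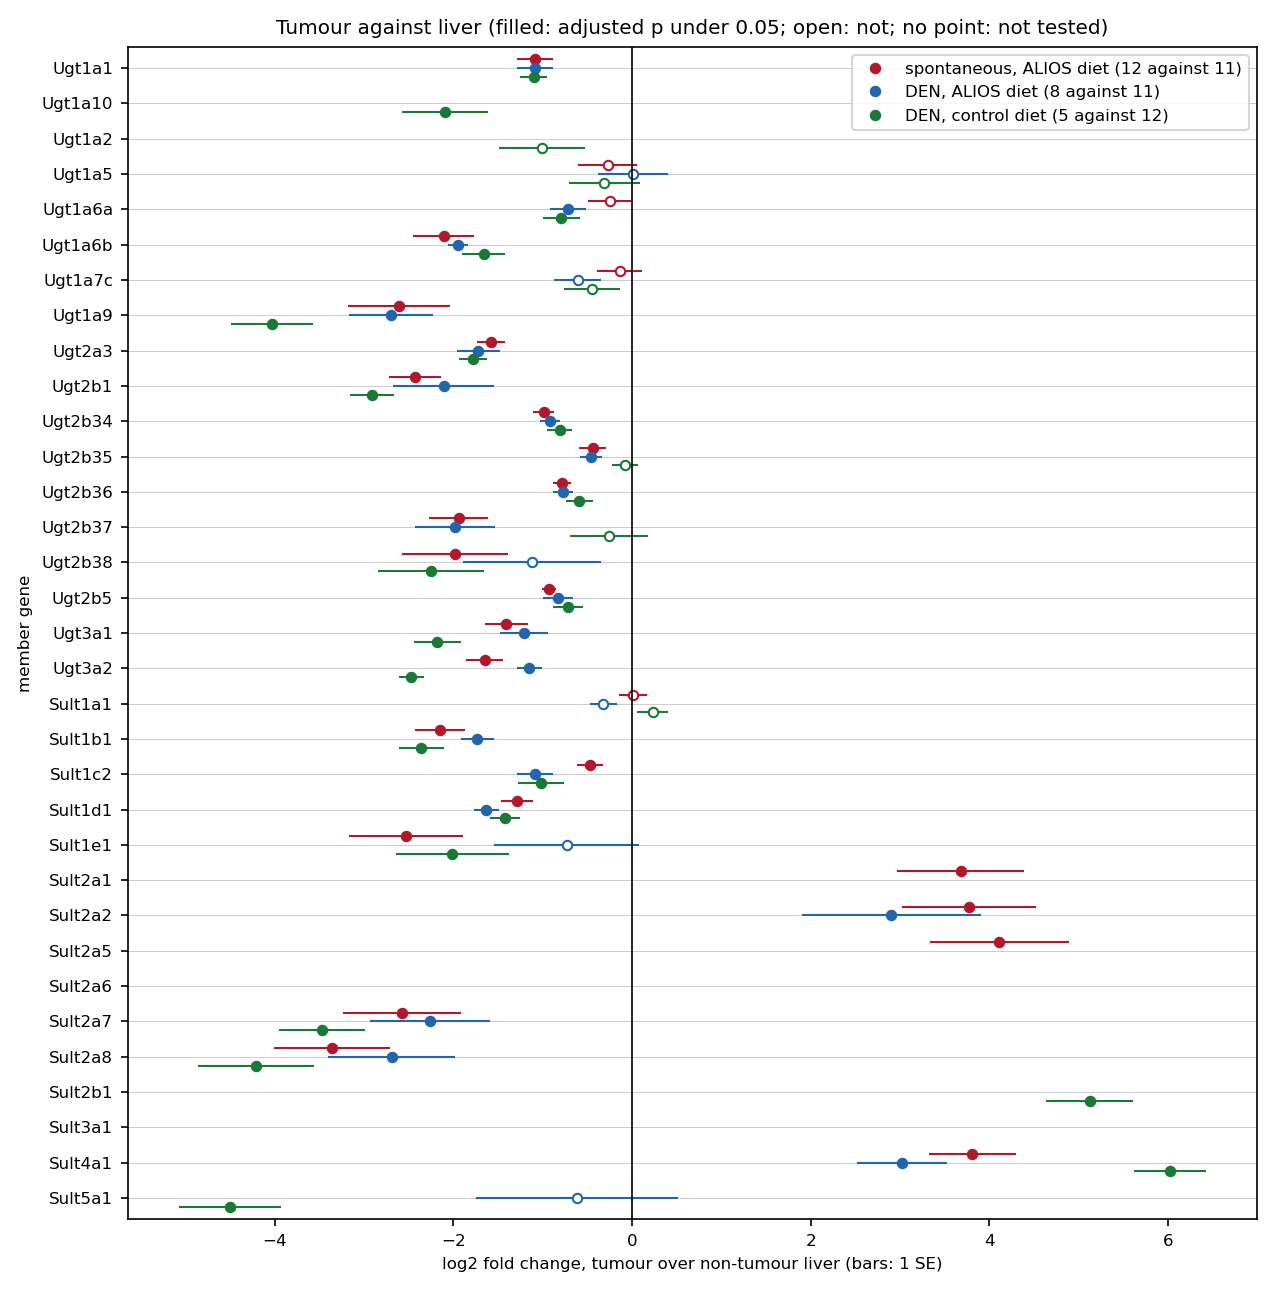
Log2 fold change of each member in tumour over non-tumour liver with 1 SE, for spontaneous ALIOS (red), ALIOS DEN (blue) and control DEN (green) tumours. Filled points passed an adjusted p of 0.05. Sult2a1, Sult2a2, Sult2a5, Sult2b1 and Sult4a1 lie right of 0 and most others left of it, down to -4.5 for Sult5a1.

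In the Ugt1a cluster 3 of 6, 4 of 6 and 5 of 8 tested genes were lower and none was higher. Ugt1a9, an enzyme for phenolic drugs, had the largest fold changes of the Ugt1a genes that passed the filter. With no filter Ugt1a10, with a median of 0.341 CPM in ALIOS livers, was at -2.81 in spontaneous tumours. The level of Ugt1a9 was 10.4 to 40.2 CPM (median 15.7) in control diet livers and 7.79 to 32.8 (median 15.4) in ALIOS livers. It was 0.278 to 17.3 (median 0.938) in ALIOS tumours and 0.636 to 6.77 (median 1.27) in ALIOS DEN tumours. The 5 control DEN tumours had 0.56, 0.593, 1.39, 0.303 and 2.43 CPM. Of 26 tumours 25 lay below every liver, the exception being T6 at 17.3. In the study's clustering of libraries T6 was the single tumour placed among the non-tumour livers. Its log2 fold changes were -2.61 ± 0.57, -2.70 ± 0.47 and -4.03 ± 0.46 in spontaneous ALIOS, ALIOS DEN and control DEN tumours (edgeR adjusted p = 0.000539, 0.000106 and 5.64e-07).

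Ugt1a1 fell by about the same amount in each kind of tumour. It had 33.3 to 187 CPM (median 86.7) in ALIOS tumours, 56.3 to 184 (median 83.4) in ALIOS DEN tumours, and 117, 112, 67.7, 68.1 and 103 CPM in the control DEN tumours. Its log2 fold changes were -1.09 ± 0.20, -1.09 ± 0.20 and -1.10 ± 0.15 (edgeR adjusted p at most 0.000193). Ugt1a6b was at -2.11, -1.95 and -1.66 on the log2 scale. Ugt1a6a, 98.4% identical to it in coding sequence and like it an enzyme for small phenols, passed in both DEN comparisons, at -0.72 and -0.79, and was at -0.25 ± 0.24 in spontaneous tumours. The difference between the genes was not tested.

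Ugt1a5 did not pass the test in any tumour comparison. Its level was 18.4 to 125 CPM (median 51.3) in control diet livers, 30 to 159 (median 65.6) in ALIOS livers, 9.43 to 145 (median 66.2) in ALIOS tumours and 21 to 142 (median 95.8) in ALIOS DEN tumours. The control DEN tumours had 65.4, 65.0, 29.6, 41.9 and 23.3 CPM. Tumours and livers overlapped throughout. Per kb, Ugt1a5 made up a median of 14.4% of the Ugt1a sum in control diet livers, 19.7% in ALIOS livers and 36.3% in ALIOS tumours, and Ugt1a1 62.2%, 60.7% and 50.6%. Ugt1a7c, near 1 CPM, was also below the threshold in all 3, and Ugt1a2 in the control DEN comparison. Ugt1a7c was at -0.61 in ALIOS DEN tumours (edgeR adjusted p = 0.0569). It passed in DESeq2 (-0.65, adjusted p = 0.0321), in edgeR with DESeq2 size factors (-0.64, adjusted p = 0.0437) and without T23 and T25 (-0.82, edgeR adjusted p = 0.0158). Ugt1a2 passed in control DEN tumours without T21 (-1.52, edgeR adjusted p = 0.0235) or without T18 (-1.41, edgeR adjusted p = 0.0351). Ugt1a10 was tested there and fell by 2.09 from a liver median of 0.517 CPM, and it passed the filter mostly through the livers.

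The Ugt2 genes, steroid, bile acid and drug glucuronosyltransferases, fell together in spontaneous tumours, where 8 of 8 were lower. In ALIOS DEN tumours 7 of 8 and in control DEN tumours 6 of 8 were lower. Ugt2b36, the most abundant Ugt per kb, had 421 to 729 CPM (median 633) in control diet livers and 576 to 747 (median 638) in ALIOS livers. In ALIOS tumours it had 206 to 522 (median 367), in ALIOS DEN tumours 247 to 455 (median 356), and in the control DEN tumours 366, 418, 340, 342 and 475 CPM. The ALIOS groups did not overlap, and the log2 fold changes were -0.78 ± 0.10, -0.77 ± 0.11 and -0.59 ± 0.15 (edgeR adjusted p at most 0.00223).

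Ugt2b5 showed a like shift, from 335 to 482 CPM (median 402) in ALIOS livers to 173 to 267 (median 211) in ALIOS tumours and 111 to 338 (median 185) in ALIOS DEN tumours. Control diet livers had 303 to 679 (median 467) and control DEN tumours 272, 339, 251, 215 and 334 CPM. Its log2 fold changes were -0.93 ± 0.08, -0.83 ± 0.17 and -0.72 ± 0.17 (edgeR adjusted p at most 0.00192). Ugt2b1 fell (log2 fold changes -2.43, -2.11 and -2.91), from medians of 580 and 636 CPM in livers to 98.4, 56.2 and 65.2 in the 3 tumour groups. T25 at 466 CPM and T23 at 348 were within the liver range. Log2 fold changes were -1.58 to -1.78 for Ugt2a3 and -0.81 to -0.99 for Ugt2b34, past the threshold in all 3 comparisons. Ugt2b35 passed in both ALIOS comparisons, at -0.44 and -0.46, and was at -0.08 ± 0.15 in control DEN tumours. With library totals alone its values were -0.27 and -0.31 and below the threshold. The scarce Ugt2b37 and Ugt2b38, with liver medians of 1.77 to 3.66 CPM, fell (log2 fold changes -1.94 and -1.98) in spontaneous tumours. Ugt2b37 was at -0.26 ± 0.44 in control DEN tumours, and at -1.08 ± 0.41 without T21 (edgeR adjusted p = 0.035). Ugt2b38 was at -1.12 ± 0.77 in ALIOS DEN tumours, and at -2.45 ± 0.78 without T23 and T25 (edgeR adjusted p = 0.0129).

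The Ugt3 genes, whose human counterparts use sugars other than glucuronic acid, were lower in each kind of tumour. Ugt3a2 had 191 to 292 CPM (median 270) in control diet livers and 234 to 341 (median 265) in ALIOS livers. It had 31.9 to 198 (median 76.5) in ALIOS tumours, 70.3 to 192 (median 112) in ALIOS DEN tumours, and 44.7, 45.8, 60, 35.9 and 40.5 CPM in control DEN tumours. All control DEN tumours lay below all ALIOS DEN tumours. Its log2 fold changes against liver were -1.65 ± 0.21, -1.15 ± 0.14 and -2.47 ± 0.14 (edgeR adjusted p at most 3.76e-06). Ugt3a1 went from 13.9 to 43.0 CPM (median 36) in control diet and 38.7 to 48.4 (median 43.0) in ALIOS livers to 5.34 to 44.0 (median 14.2) in ALIOS tumours and 2.75 to 33.1 (median 18.6) in ALIOS DEN tumours. The control DEN tumours had 7.08, 9.22, 7.42, 4.84 and 6.09 CPM, and the log2 fold changes were -1.41, -1.21 and -2.18 (edgeR adjusted p at most 0.00118).

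Of the 5 Sult1 genes, 4, 3 and 4 were lower in the 3 comparisons, and Sult1a1 passed the test in none. Sult1a1 had 244 to 525 CPM (median 369) in control diet livers, 339 to 656 (median 423) in ALIOS livers, 293 to 775 (median 379) in ALIOS tumours, 211 to 488 (median 328) in ALIOS DEN tumours, and 365, 425, 453, 508 and 353 CPM in control DEN tumours. Its log2 fold changes were 0.01 (95% interval -0.30 to 0.32), -0.32 (-0.60 to -0.03) and 0.23 (-0.10 to 0.55), none past the threshold. Without T24 the ALIOS DEN value was -0.40 ± 0.14 and passed it (edgeR adjusted p = 0.0205).

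Sult1d1, a catecholamine sulfotransferase, had 87.3 to 174 CPM (median 135) in control diet livers, 99.2 to 197 (median 154) in ALIOS livers, 36.2 to 132 (median 55.2) in ALIOS tumours and 37.0 to 67.8 (median 44.5) in ALIOS DEN tumours. The control DEN tumours had 59.5, 59.5, 46.5, 41.8 and 38.2 CPM. The log2 fold changes were -1.29 ± 0.18, -1.63 ± 0.14 and -1.42 ± 0.17 (edgeR adjusted p at most 4.85e-06). Sult1b1, which acts on thyroid hormones and phenols, fell (log2 fold changes -2.15, -1.73 and -2.36), as did Sult1c2 (-0.47, -1.09 and -1.02). Sult1c2 was at -0.29 and below the threshold in spontaneous tumours with library totals alone.

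Sult1e1 fell in spontaneous ALIOS tumours (-2.53) and in control DEN tumours (-2.01; edgeR adjusted p = 0.00203 and 0.012). ALIOS tumours had 0 to 1.43 CPM with a median of 0.0643, and control DEN tumours 0.0329, 0.0297, 0.194, 0.182 and 0.0501. In both comparisons Sult1e1 passed the filter mostly through the livers. In ALIOS DEN tumours T24 had 4.86 CPM and the 7 others 0.0283 to 0.137. With T24 the log2 fold change was -0.73 ± 0.81, and without it -3.62 ± 0.54 (edgeR adjusted p = 2.74e-05).

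Sult2a8, the most abundant sulfotransferase per kb of normal liver and known to sulfate bile acids, had the largest fall among the abundant members. The gene lies at chr7:14410686-14446769 on the minus strand. Its level was 547 to 1432 CPM over all livers, 4.35 to 311 (median 37.7) in ALIOS tumours and 4.53 to 519 (median 36.6) in ALIOS DEN tumours. The control DEN tumours had 10.1, 4.30, 191, 49.7 and 30 CPM. All 26 tumours lay below all 23 livers, and the tumours ranged from 4.30 to 519 CPM. Its log2 fold changes were -3.36 ± 0.65, -2.69 ± 0.71 and -4.21 ± 0.65 (edgeR adjusted p = 0.000157, 0.00429 and 2.54e-05).

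The highest tumours were T25 at 519 and T23 at 417 CPM, both ALIOS DEN tumours. Sult2a7, at chr7:14465051-14494230 next to Sult2a8, had 1.15 to 4.71 CPM (median 2.51) in control diet livers and 1.61 to 3.83 (median 3.02) in ALIOS livers. It had 0 to 2.37 (median 0.0587) in ALIOS tumours, 0 to 2.80 (median 0.127) in ALIOS DEN tumours, and 0.165, 0.237, 0.615, 0.0605 and 0.0751 CPM in control DEN tumours. The log2 fold changes were -2.57 ± 0.66, -2.26 ± 0.67 and -3.47 ± 0.48 (edgeR adjusted p at most 0.00901). Sult2a7 passed the filter mostly through the livers in each comparison.

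**Figure D4:**
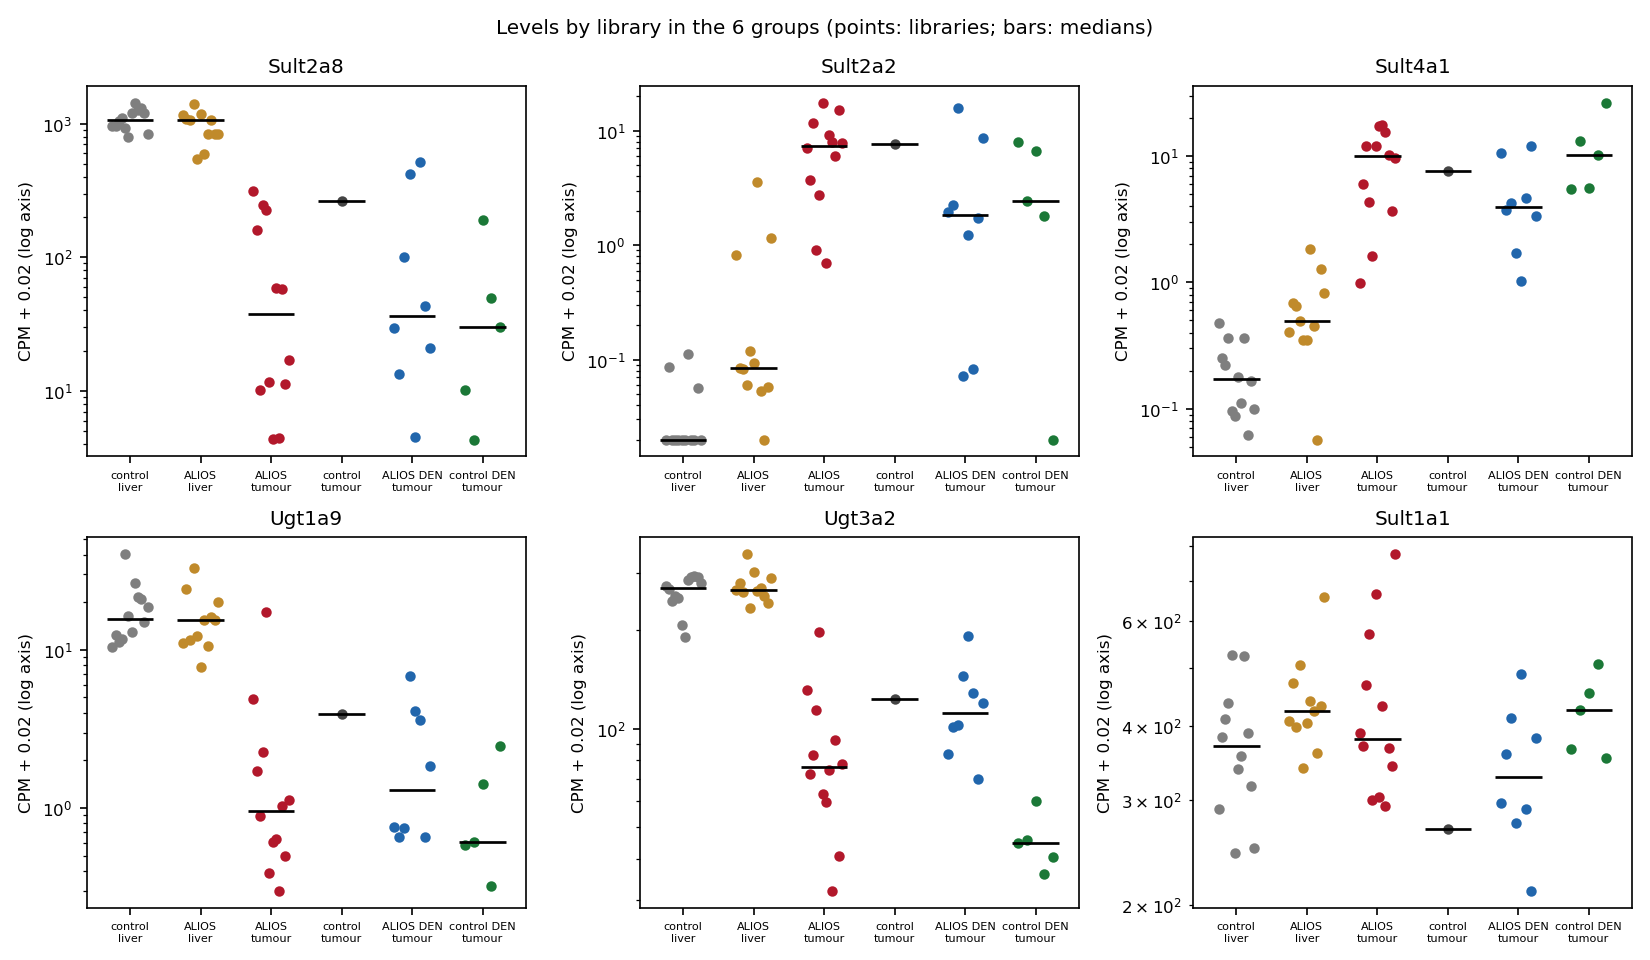
CPM plus 0.02 on a log axis for 6 members, with 1 point per library in the 6 groups and a bar at each median. All 26 tumours lie below all 23 livers for Sult2a8, Sult4a1 and Sult2a2 move the other way, Ugt3a2 has its lowest group median in the control DEN tumours, and Sult1a1 overlaps between all groups with several libraries.

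The other Sult2a genes moved the opposite way. Sult2a2 had 0 to 0.0913 CPM (median 0) in control diet livers and 0 to 3.56 (median 0.0637) in ALIOS livers. ALIOS tumours had 0.676 to 17.5 (median 7.36), ALIOS DEN tumours 0.0515 to 15.8 (median 1.81), and control DEN tumours 7.90, 2.40, 6.61, 1.79 and 0 CPM. Of 26 tumours 14 lay above every liver, and 21 above every liver other than N19. Its log2 fold change was 3.77 ± 0.75 in spontaneous and 2.90 ± 1.0 in ALIOS DEN tumours (edgeR adjusted p = 0.000228 and 0.0223). T23 and T25, which had the most Sult2a8 among tumours, had 0.0515 and 0.0624 CPM of Sult2a2. The next highest in Sult2a8, T2 at 311 CPM and T7 at 264, had 6.98 and 7.65 of Sult2a2. T9 and T21 were low in both, with 4.35 and 30 CPM of Sult2a8 and 0.676 and 0 of Sult2a2. A relation between the levels of these genes was not tested.

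Sult2a5 went from 0 to 0.972 CPM (median 0) in ALIOS livers to 0.118 to 4.97 (median 2.06) in ALIOS tumours, a log2 fold change of 4.11 ± 0.78 (edgeR adjusted p = 0.000127). ALIOS DEN tumours had 0 to 3.20 (median 0.543), and control DEN tumours 1.55, 0.385, 2.20, 0.454 and 0.025. Sult2a1 had 0.235 to 3.74 CPM in spontaneous tumours, a log2 fold change of 3.68 ± 0.71. Sult2a5 was at 0 in 18 of 23 livers, Sult2a1 in 15 and Sult2a2 in 10, and all 3 entered the test through the tumours, where they are high. In ALIOS DEN tumours Sult2a1 and Sult2a5 did not pass the filter, and without it edgeR gave 2.89 ± 0.94 and 2.85 ± 0.96 (adjusted p = 0.0243 and 0.0296). Because these 3 genes share sequence, their separate levels are uncertain. Sult2a6, which shares no 100-base window with another member, gave 304 counts over the ALIOS tumours and 8 over the ALIOS livers, a ratio of 29.8 (counting interval 14.9 to 69.7). The ALIOS DEN tumours had 70 counts of it, a ratio of 8.99 (4.32 to 21.6) to the ALIOS livers.

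On control diet these 4 genes did not pass the filter on low counts with all 5 DEN tumours, so counts summed over each group are given. The 5 DEN tumours had 584 counts of Sult2a2 and the 12 livers 6, a ratio of 200 (counting interval 91.2 to 546). Sult2a1 gave 144 against 6, a ratio of 49.2 (22.1 to 136), and Sult2a5 144 against 1, a ratio of 295 (52.2 to 11743). Sult2a6 gave 49 against 0, at least 33.5-fold higher when 3 counts over the group are allowed for a count of 0. These intervals cover counting error only. T21 differed from the other 4 tumours, with 0 of Sult2a2 and Sult2a6 and 0.025 CPM of Sult2a1 and Sult2a5. In the same tumours 4 of 5 tested genes known to be higher in female liver rose and 7 of 8 known to be higher in male liver fell. In spontaneous tumours the numbers were 4 of 7 and 7 of 8. In ALIOS DEN tumours 2 of 7 rose, 2 fell, and 2 of 8 fell. Over all genes 27.3%, 26.9% and 27.7% were higher in control DEN, spontaneous and ALIOS DEN tumours. The shares lower were 24.4%, 25.9% and 19.8%. The numbers risen and fallen in ALIOS DEN tumours are thus near the share of all genes. The part of such shifts in the Sult2a levels was not tested.

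Promoters are shown for Sult2a8, which fell, for Sult2a5 and Sult2a6, which rose from near 0, and for Ugt1a9. The windows run from 250 bases before to 50 after a RefSeq start on GRCm38.p6, from the C57BL/6J reference. They cover chr7:14438502-14438801 (minus, the second annotated start of Sult2a8), chr7:13623717-13624016 (plus), chr7:14254821-14255120 (minus) and chr1:88070529-88070828 (plus). Capitals mark 3 motifs. AGGTCA is the half-site of many nuclear receptors and was searched on both strands. The half-site of HNF1, also searched on both strands, is GTTAAT. The sense strand alone was searched for TATAAA, the letters of a TATA box.
Sult2a8: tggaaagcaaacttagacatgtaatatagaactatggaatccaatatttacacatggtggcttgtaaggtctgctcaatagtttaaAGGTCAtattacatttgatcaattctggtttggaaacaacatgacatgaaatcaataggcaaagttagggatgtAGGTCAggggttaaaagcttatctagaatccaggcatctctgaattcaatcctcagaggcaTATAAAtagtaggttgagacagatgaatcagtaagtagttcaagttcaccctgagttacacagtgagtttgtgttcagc
Sult2a5: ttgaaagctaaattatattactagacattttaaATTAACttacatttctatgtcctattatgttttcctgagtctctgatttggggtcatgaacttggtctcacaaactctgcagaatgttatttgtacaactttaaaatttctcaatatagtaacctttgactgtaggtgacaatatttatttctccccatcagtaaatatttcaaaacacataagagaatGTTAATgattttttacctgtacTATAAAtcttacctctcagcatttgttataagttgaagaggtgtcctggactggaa
Sult2a6: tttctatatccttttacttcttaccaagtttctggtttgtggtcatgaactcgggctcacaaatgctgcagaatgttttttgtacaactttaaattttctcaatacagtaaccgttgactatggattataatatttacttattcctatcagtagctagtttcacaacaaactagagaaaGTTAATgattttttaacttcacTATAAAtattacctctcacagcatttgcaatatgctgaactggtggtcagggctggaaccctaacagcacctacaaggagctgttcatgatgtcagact
Ugt1a9: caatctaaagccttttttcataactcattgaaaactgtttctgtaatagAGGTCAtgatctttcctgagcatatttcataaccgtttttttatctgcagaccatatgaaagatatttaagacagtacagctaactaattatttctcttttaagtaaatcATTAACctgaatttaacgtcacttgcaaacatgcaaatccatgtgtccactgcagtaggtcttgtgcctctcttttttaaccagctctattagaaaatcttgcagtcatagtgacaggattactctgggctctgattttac

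The first annotated start of Sult2a8 (chr7:14446538-14446837, minus) held none of the 3 motifs. A TATA box letter match lay 29 bases before the second Sult2a8 start, with AGGTCA at -164 and -90. Both Sult2a5 and Sult2a6 held GTTAAT 22 bases before TATAAA. RefSeq windows were found for 27 members (30 promoters). AGGTCA was in 10 of the 30 (33.3%) and in 16.3% of 32851 promoters of the same length, GTTAAT in 10 (33.3%) and 7.1%, TATAAA in 4 (13.3%) and 8.3%, and the STAT palindrome TTCNNNGAA (both strands) in 2 (6.7%) and 8.3%. A match describes letters and is not a shown binding site, and neighbouring genes share ancestry, so the members' promoters are not independent of each other.

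With the filter on low counts Sult4a1 was the 1 member that rose in each tumour comparison. On control diet it had 65 counts over the 12 livers and 2163 over the 5 DEN tumours. It passed the filter there through the tumours, so the direction of that call was fixed. With no filter Sult2a1, Sult2a2, Sult2a5, Sult2a6 and Sult2b1, all near 0 in most livers, were called higher in each as well. The Sult4a1 gene lies at chr15:84076097-84105754 on the minus strand. ALIOS tumours had 0.976 to 17.4 CPM (median 9.95), ALIOS DEN tumours 1.01 to 11.9 (median 3.96), and control DEN tumours 5.43, 13.2, 5.57, 10.1 and 26.3 CPM. Of 26 tumours 22 lay above the highest liver, N19 at 1.83 CPM. The log2 fold changes were 3.81 ± 0.49, 3.02 ± 0.50 and 6.02 ± 0.40 (edgeR adjusted p at most 6.61e-05).

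Sult2b1, which sulfates cholesterol and pregnenolone, had 0 to 0.172 CPM (median 0.0297) in control diet livers and 0.56, 0.949, 1.78, 2.15 and 0.701 in control DEN tumours, a log2 fold change of 5.12 ± 0.49 (edgeR adjusted p = 6.58e-08). The 12 livers held 11 counts of it in all and the 5 tumours 203, so that it passed the filter through the tumours. ALIOS tumours had 0 to 1.76 CPM (median 0.982) and ALIOS DEN tumours 0.071 to 1.79 (median 0.956), and 23 of 26 tumours lay above every liver. With no filter edgeR gave 4.39 ± 0.57 and 4.38 ± 0.58 for those groups (adjusted p at most 7.08e-06). Sult5a1 fell by 4.5 ± 0.57 in control DEN tumours, which had 0.165, 0.148, 2.14, 0.333 and 0.0751 CPM (edgeR adjusted p = 2.4e-06). In that comparison it passed the filter mostly through the livers. ALIOS tumours had 0 to 0.30 CPM (median 0.0813). ALIOS DEN tumours had 0 to 20.5 (median 0.188), and T25 alone held the 20.5. There the log2 fold change was -0.62 ± 1.13, and -5.13 ± 1.18 without T23 and T25 (edgeR adjusted p = 0.00133). Sult3a1 was scarce in tumours, apart from T2 at 17.1 CPM, and passed the filter in no tumour comparison.

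The pools changed in size and in makeup. The Ugt sum per kb had a median of 693, 698 and 714 CPM in ALIOS, ALIOS DEN and control DEN tumours, against 1662 and 1576 in control diet and ALIOS livers. The Sult sum was 345, 327 and 326 against 683 and 677. Of the Sult sum, Sult1a1 made up a median of 80.3%, 78.5% and 85.0% in the tumour groups, and Sult2a8 3.1%, 5.44% and 3.31%. Within the Sult2 family alone Sult2a8 held a median of 99.4% in control diet and 99.1% in ALIOS livers. In ALIOS, ALIOS DEN and control DEN tumours the median was 48.0%, 59.5% and 78.6%, with a range of 8.85% to 96.8% in ALIOS tumours. These shares use gene lengths of a later annotation than the counting and are descriptions.

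**Figure D5:**
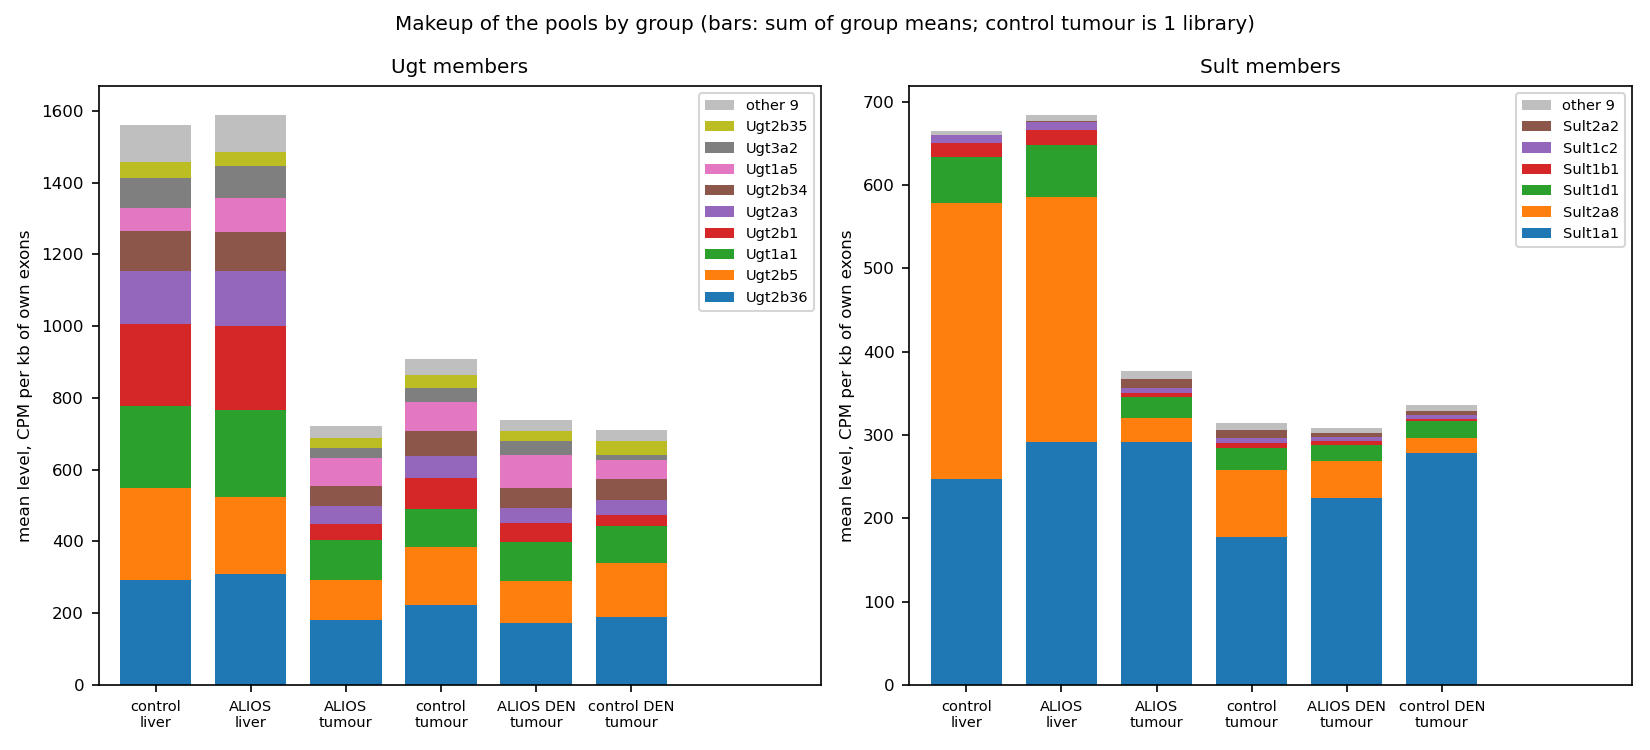
Stacked bars of group mean CPM per kb of own exons for the Ugt (left) and Sult (right) members in the 6 groups. The Sult2a8 segment is 331 in control diet livers and 28.5, 43.7 and 17.4 in ALIOS, ALIOS DEN and control DEN tumours, while Sult1a1 stays between 225 and 292 in the groups with several libraries.

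T7, the single control diet tumour without DEN, allowed no test. It lay below all 12 control diet livers for 15 members and above all of them for 6 (Sult2a1, Sult2a2, Sult2a5, Sult2a6, Sult2b1 and Sult4a1), and within their range for 12. The share of all genes outside that range in T7 is not given, so these numbers only describe the members. For Ugt1a10, Ugt1a2 and the scarce Sult genes they rest on few counts. It had 264 CPM of Sult2a8, 7.65 of Sult2a2, 7.59 of Sult4a1 and 123 of Ugt3a2.

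DEN tumours were compared with spontaneous tumours on the ALIOS diet. Of 27 members tested, none passed edgeR's test in either direction (0.0% of 14845 genes did higher and 0.0% lower). At an unadjusted p under 0.05 there were 2 members, Sult1c2 at -0.68 ± 0.24 and Sult2a6 at -1.78 ± 0.71, and 1079 genes. DESeq2 called 86 genes and no member, and a fit of all 49 libraries called 403 genes and 1 member, Sult5a1 at 4.62 ± 0.94 (T25 held most of it). The interval of the difference was wide for Sult2a8, from -1.16 to 2.38, and narrower for Ugt3a2, from -0.08 to 0.96.

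Diet in DEN tumours (8 ALIOS against 5 control) called no member in edgeR, with 26 tested (0.0% of 14944 genes were higher and 0.0134% lower). At an unadjusted p under 0.05 there were 5 members, Ugt2b35, Ugt3a1, Ugt3a2, Sult1b1 and Sult4a1, and 1273 genes. Ugt3a2 was at 1.39 ± 0.23 with an edgeR adjusted p of 0.095. DESeq2 called it at 1.38 ± 0.24 (adjusted p = 1.2e-05), as did a fit of all 49 libraries (edgeR adjusted p = 0.00439). Without T24 edgeR called Ugt3a2 at 1.25 ± 0.19 (adjusted p = 0.0329) and Ugt3a1 at 1.54 ± 0.25 (adjusted p = 0.0442).

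The difference between the diet effect in DEN tumours and that in liver was tested over 15606 genes in 36 libraries. Of 32 members, Ugt3a2 was higher and Sult4a1 lower (1.04% of genes were higher and 1.23% lower). For Ugt3a2 the diet effect was 0.05 ± 0.07 in liver and 1.39 ± 0.23 in DEN tumours, a difference of 1.33 ± 0.19 (edgeR adjusted p = 0.000934). For Sult4a1 it was 1.77 ± 0.42 and -1.23 ± 0.55, a difference of -3.01 ± 0.69 (edgeR adjusted p = 0.0166). Without T24 the differences were 1.18 and -2.86, both past the threshold, and Ugt3a1 joined at 1.13 ± 0.28 (edgeR adjusted p = 0.0178). In the same test 4 of 6 pericentral markers (Glul, Oat, Lgr5 and Axin2) were higher, with a median of 3.96 over the 6, and the median of 6 periportal markers was 0.20. T24 held 26122 CPM summed over the pericentral genes, where the ALIOS DEN median was 1083. Marker values without T24 are not given. The part of zonation in the Ugt3a2 and Sult4a1 values was not tested.

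Genes that supply cosubstrates and clear conjugates were counted next. Of 4 genes for UDP-glucuronate supply and transport, 3 fell in spontaneous tumours, 2 in ALIOS DEN and 3 in control DEN tumours. The shares of all genes lower were 25.9%, 19.8% and 24.4%, and those higher 26.9%, 27.7% and 27.3%. Lists of so few genes only describe their members. Ugdh, which makes UDP-glucuronate, fell (log2 fold changes -0.86 and -0.83) in spontaneous and control DEN tumours, and already by 0.34 ± 0.08 with the ALIOS diet in liver (edgeR adjusted p = 0.0112), where Slc35d2 fell by 0.20. The carrier Slc35d1 fell (log2 fold changes -0.49, -0.59 and -0.25), as did Slc35d2 (-0.59, -0.73 and -0.71) in the 3 comparisons. Of 6 genes of PAPS supply, Papss2, the PAPS synthase of liver, fell (log2 fold changes -1.03, -1.46 and -0.77) as did Bpnt1, a phosphatase that clears the spent cofactor (-0.75, -0.66 and -0.91), while the carrier Slc35b3 rose by 0.27, 0.40 and 0.41. Papss1, Slc35b2 and Impad1 passed in none of the 3. With 2 of 6 lower and 1 of 6 higher in each, these numbers are near the shares of all genes.

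Of 4 hydrolases of conjugates and their activator found in the table, Arsb rose in each comparison (0.34, 0.52 and 0.67), Gusb, the beta-glucuronidase, in both DEN comparisons (0.29 and 0.24), and Sumf1 fell in spontaneous tumours by 0.15. Among 4 exporters Abcg2 fell in each (-0.82, -0.57 and -0.53). Abcc4 rose by 2.18 in both DEN comparisons and by 0.85 ± 0.18 with diet in liver (edgeR adjusted p = 0.00579), Abcc2 rose by 0.57 in control DEN tumours, and Abcc3 fell by 0.48 in spontaneous tumours. Beside 19.8% to 25.9% of all genes lower and 26.9% to 27.7% higher in tumours, lists of 4 genes only describe their members.

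Regulators fell more often than they rose. Of 14 transcription factors 10, 8 and 6 were lower in spontaneous, ALIOS DEN and control DEN tumours, where 25.9%, 19.8% and 24.4% of all genes were, and 1, Nfe2l2 (NRF2), was higher in each, by 0.74, 0.91 and 1.11. Nr1i3 (CAR) was at -1.78, -2.0 and -2.89 in the 3 comparisons. Its median was 247 CPM in control diet livers and 13.1 in ALIOS tumours, a pair that differs in diet as well as tissue. Nr1h4 (FXR) was at -0.71, -1.06 and -0.66 and Rxra was at -0.49, -0.63 and -0.37. Hnf4a passed in none, at 0.00, 0.06 and 0.14. Of 9, 9 and 8 receptor target genes tested, 5, 2 and 4 fell and 0, 0 and 1 rose, and the 2 of 9 in ALIOS DEN tumours are near the share of all genes. Of 6 pericentral markers 5, 1 and 6 fell and 0, 1 and 0 rose, with median log2 fold changes of -1.88, 0.90 and -3.30. In ALIOS DEN tumours the 6 summed to a median of 1083 CPM, against 7100 in ALIOS livers. T24 was the highest of these tumours at 26122 CPM, and the 0.90 includes it. Of 6 periportal markers 4, 3 and 5 fell and none rose, with medians of -1.34, -1.46 and -1.59. What part any of these has in the members' levels was not tested.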

How the data were processed

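RNA-seq counts were analysed for 50 libraries, grouped by GEO's labels. Stranded mRNA libraries were read as 100-base pairs. The authors used STAR (2 passes, mm10) and HTSeq in its intersection-nonempty setting over Gencode M6 exons, and deposited raw counts per gene. Versions of both tools and the strand setting are not given in the sources used here. The counts carry no normalization, and no row lacked a gene. Reads are not independent molecules. The smallest chi-square per gene between 2 libraries of a group was 12.96, so no pair was a library deposited again.

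The members and gene lists were chosen with earlier results of these data known. Some genes of the lists are not reported here by name. T1 was left out by the members' rule. Symbols, lengths and coordinates came from Gencode M21 (GRCm38.p6), promoters from RefSeq. The row that the table names Sult2a4 a second time is Sult2a2 there and is called so here.

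Genes were tested in edgeR 4.0.16 (limma 3.58.1, R 4.3.3) with filterByExpr, TMM and glmQLFTest, only the groups compared, no covariates and Benjamini-Hochberg adjustment over all genes tested, with calls under 0.05. The test procedure, and not the calls of members, was tried on simulated counts with a single fixed dispersion. Its outcome is not given here. SE is the log2 fold change over the root of F, and 95% intervals come from the same fit. CPM are counts per 1000000 after TMM over 49 libraries, and for T1 after its library total alone. Named genes were, in each comparison, the 3 largest calls per direction, and in each family the 2 highest per kb. Alternatives were DESeq2 1.42.0 (the study's tool) and its size factors, library totals, no filter, all 49 libraries in 1 fit, and libraries left out or, for T1, kept in. N19, and T23 with T25, were left out after their values were seen. Tables were handled in Python 3.11.15 (pandas 2.3.3, numpy 2.4.6, scipy 1.17.1, matplotlib 3.10.9).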

Additional observations from a re-analysis of the deposited data

Results flagged for a closer look

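In 66 groups of 4 to 10 libraries searched, 1 library of a member was set apart from its group by Dixon's criterion 6 times, where chance gives about 3.3, and T24 was that library in 4. Among ALIOS DEN tumours T24 had 24.3 CPM of Ugt2a3 (69.3 to 149 in the 7 others), 2.75 of Ugt3a1 (12.3 to 33.1), 2.38 of Sult1c2 (6.11 to 12.3) and 4.86 of Sult1e1 (0.0283 to 0.137). Among control DEN tumours T21 had 4.18 CPM of Ugt2b37 (0.726 to 1.1 in the others) and T20 had 0.0908 of Sult3a1, listed at 0 in the others.

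The diet effect differed between DEN tumours and liver for Ugt3a2, by 1.33 ± 0.19 (log2), and for Sult4a1, by -3.01 ± 0.69, in the interaction test of edgeR (adjusted p = 0.000934 and 0.0166).

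T1, labelled a spontaneous ALIOS tumour, held 9 members, each with 10 or more counts, above their listed level in every other library. CPM of T1 were scaled by its library total alone and those of the other libraries by TMM, so the narrow margins of Ugt1a10 and Ugt1a2 are uncertain. T1 had 0.867 CPM of Ugt1a10 (at most 0.866 elsewhere), 1.07 of Ugt1a2 (at most 0.842), 429 of Ugt1a7c (at most 1.73), 556 of Ugt2b37 (at most 5.52) and 1707 of Ugt2b38 (at most 22.8). It also had 183 CPM of Ugt3a1 (at most 48.4), 1434 of Ugt3a2 (at most 341), 264 of Sult1c2 (at most 24.4) and 701 of Sult1d1 (at most 197). Kidney tubule markers summed to 42539 CPM and hepatocyte markers to 762 in this library.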

How the results depend on the processing

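Over the 69 calls of members, 623 values under alternatives were computed. Of these 609 kept direction and side of the threshold, 11 kept direction only and 3 reversed. The 3 arose with T1 kept among the spontaneous tumours, Ugt2b37 at 3.25, Ugt2b38 at 4.99 and Sult1c2 at 0.57. For diet in liver, members called were 2, and 5 without a filter, 4 with DESeq2 and 1 without N19, with 957, 2459 and 623 genes called over the whole table without N19, with DESeq2 and with all 49 libraries in 1 fit (1542 otherwise). For DEN against spontaneous tumours the 49-library fit called 1 member and 403 genes, and DESeq2 86 genes, against 0 otherwise. For diet in DEN tumours DESeq2 called 1 member and 152 genes, the 49-library fit 2 and 296, and the fits without a filter or without T23 and T25 called 1 gene each, against 2 genes otherwise. Leaving out each control DEN tumour or T24 in turn gave 0 to 2 members and 0 to 14 genes there, 14 without T24. For the difference of the diet effects (354 genes) it gave 174 genes without T17 to 732 without T24, and DESeq2 gave 656 and the 49-library fit 220. The cause was not tested.

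No paired analysis was possible because livers and tumours are numbered in separate runs and a number marks no mouse. Members near 1 CPM or less rest on few counts per library, which limits their precision, and those that failed the filter were compared by sums of counts and by fits without the filter.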
